A study of Mus musculus with 2 samples.

Results

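The miR-322 cluster is a group of microRNA genes on the mouse X chromosome that lie close together on 1 strand. Its members were the rows of the count tables whose GENCODE M21 symbol is Mir322, Mir503, Mir351 or Mir542 or starts with Mir450, which gave 7 genes of the 2202 in the tables: Mir322, Mir503, Mir351, Mir542, Mir450-2, Mir450-1 and Mir450b. They were measured by microRNA sequencing of heart tissue from adult female B6CASTF1/J mice, the F1 hybrids of C57BL/6J with CAST/EiJ, at 18 to 20 months of age. The labels name no treatment and no engineered allele. All material formed 1 group with a pair of libraries, numbered in the labels as biological replicates 1 and 2. They carry separate tissue records and share a donor record, so the SDs below measure the spread between these libraries, which may be technical in part. No conditions were compared, so the questions are how high each member stood in the aged heart and how its level varied over the libraries.

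A microRNA is cut from a hairpin in a longer transcript, and hairpins that lie in a row on 1 transcript (a polycistron) can be released together. Either arm of a hairpin (5p or 3p) can become the mature microRNA, which guides silencing of messenger RNAs mainly through its seed, bases 2 to 8. In mouse myoblasts miR-322 and miR-503 are induced during differentiation and promote exit from the cell cycle through the phosphatase gene Cdc25a, and in mouse embryos both have been described in early cardiac progenitors. The human counterpart of miR-322 is named miR-424.

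RefSeq held mature sequences on build GRCm38.p6 for 7 of the 7 members, 13 different mature names in all. Those below show which members share a seed with each other or with microRNAs from elsewhere in the genome, with the seed in capitals, 5′ to 3′:
miR-322-5p: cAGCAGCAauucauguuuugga
miR-15a-5p: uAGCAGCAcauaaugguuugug
miR-16-5p: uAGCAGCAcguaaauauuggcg
miR-195a-5p: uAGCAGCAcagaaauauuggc
miR-503-5p: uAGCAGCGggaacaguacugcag
miR-351-5p: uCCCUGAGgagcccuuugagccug
miR-125a-5p: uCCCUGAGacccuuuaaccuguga
miR-542-3p: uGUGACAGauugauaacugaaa
miR-450a-5p: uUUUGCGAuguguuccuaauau
miR-450b-5p: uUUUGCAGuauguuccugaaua
miR-450a-1-3p: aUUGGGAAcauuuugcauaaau
miR-450b-3p: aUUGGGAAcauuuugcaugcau
miR-450a-2-3p: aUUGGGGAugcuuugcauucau
The seed of miR-322-5p is that of the miR-15 and miR-16 family, which acts on cell cycle genes. The miR-503-5p seed shares bases 2 to 7 with it but not base 8. The miR-351-5p seed is that of miR-125, so the cluster carries seeds of different families side by side. Among the members, a whole seed was shared by miR-450a-1-3p and miR-450b-3p, and the 5p arm of Mir450-1 and Mir450-2 is the same microRNA, miR-450a-5p. The 13 mature sequences carried 12 different seeds, and 5 of the 13 began with U.

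The 7 genes span 6.35 kb of mm10, from Mir322 at the 5′ end (chrX:53054255-53054349, minus strand) to Mir450b at the 3′ end (chrX:53047997-53048078). Mir503 (chrX:53053984-53054054) begins 200 bp after Mir322, and Mir351 (chrX:53053255-53053353) 630 bp after Mir503. A gap of 3767 bp parts Mir351 from Mir542 (chrX:53049403-53049487). Mir450-2 (chrX:53048299-53048367) follows after 1035 bp, Mir450-1 (chrX:53048154-53048244) after a further 54 bp and Mir450b after 75 bp. No annotated gene overlapped a member, so none is placed in an exon, an intron or a UTR. The noncoding transcript C430049B03Rik ends 696 bp upstream of Mir322 on the same strand, and the lincRNA Gm28730 fills part of the gap between Mir351 and Mir542. The hairpins of the Mir450 genes were poorer in G and C (30.5 to 36.2%) than those of the other 4 members (50.5 to 54.9%). Hairpin pairs shared at most 10 nt, except Mir450-2 with Mir450-1 (25 nt) and Mir450-1 with Mir450b (19 nt).

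Sense reads at microRNA genes numbered 3383676 in replicate 1 and 3676084 in replicate 2. Levels are counts per 1000000 of these reads (CPM), as mean ± SD over n = 2 where a mean is given. They are counts per hairpin gene, which do not separate the arms or the parental alleles and are not scaled by length, since a read spans a mature microRNA whatever the length of its hairpin. Reads that mapped to more than 1 place took 43.9% of replicate 1 and 43.2% of replicate 2 and entered no gene count. Reads of miR-450a-5p fit both Mir450-1 and Mir450-2, so the counts of these genes are uncertain and are no measure of that microRNA. How evenly the library protocol captures different microRNA sequences was not tested. Intervals are for counting error only and treat each read as independent. Reads made by PCR are not independent molecules, so the intervals may be too narrow even for that error. The p-values below may likewise be too small.

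The cluster as a whole yielded 9940 reads in replicate 1 and 15570 in replicate 2. That was 0.294% of the sense gene counts in replicate 1, with a Wilson 95% interval of 0.288 to 0.300, against 0.424% in replicate 2, with an interval of 0.417 to 0.430, and a mean of 0.359% ± 0.0918. On the antisense strand the 7 genes had 0 reads in either library, which allows at most 0.0302% of the cluster's reads in replicate 1 and 0.0193% in replicate 2. Of the 7 members, 6 passed the minimum of 10 counts in both libraries, and Mir450-1 did not. Of all 2202 genes, 316 passed it and 1494 had 0 counts in both libraries, so the ranks below are among mostly undetected genes.

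Mir322 was the dominant gene of the cluster. Its level was 2499 CPM in replicate 1, with a Wilson 95% interval of 2447 to 2553, and rank 38 of the 2202 genes. Its level was 3614 CPM in replicate 2, with an interval of 3553 to 3675, and rank 34. It held 85.1% of the cluster's reads in replicate 1 (84.4 to 85.8) and 85.3% in replicate 2 (84.8 to 85.9). A share this large moves little with the levels of the small members, so it does not show whether they kept their proportion to Mir322.

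Mir503, which shares most of its seed with miR-322, lies next to it and was far lower. It had 43.7 CPM in replicate 1, from 148 reads, and 47.6 CPM in replicate 2, from 175 reads. It stood at rank 169 in replicate 1 and at rank 175 in replicate 2. The ratio of Mir322 to Mir503 was 57.1 in replicate 1, with an exact 95% interval of 48.6 to 67.7, against 75.9 in replicate 2, with an interval of 65.4 to 88.6.

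Mir351, the gene with the miR-125 seed, was second. It had 311 CPM in replicate 1 and 465 CPM in replicate 2, and its share of the cluster's reads was 10.8% ± 0.273. The ratio of Mir322 to Mir351 was 8.02 in replicate 1, with an exact 95% interval of 7.53 to 8.56, against 7.76 in replicate 2, with an interval of 7.38 to 8.17, and these intervals overlap.

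The 4 genes beyond the gap were each lower than Mir322 and Mir351, and Mir542 was higher than Mir503. Mir542, whose 3p product targets the survivin gene in human cells, had 57.0 CPM in replicate 1 and 68.6 CPM in replicate 2. Mir450b had 20.4 CPM in replicate 1 and 31.6 CPM in replicate 2, and Mir450-2 had 4.43 CPM in replicate 1 against 6.80 CPM in replicate 2. Mir450-1 was the lowest member, with 4 reads in replicate 1 (1.18 CPM) and 7 in replicate 2 (1.90 CPM). The levels of Mir450-2 and Mir450-1 rest on reads that tell these hairpins apart, so their place at the bottom is not a measure of miR-450a-5p.

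**Figure D1:**
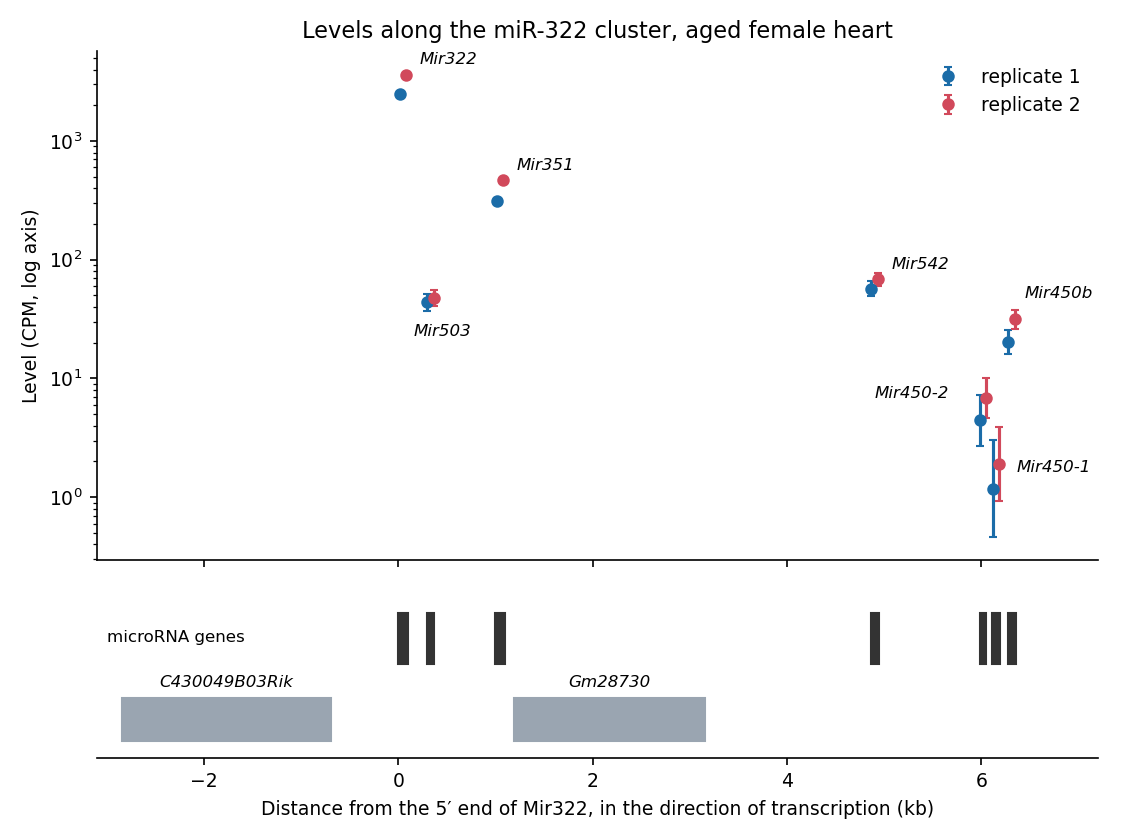
Level of each member (upper panel, counts per 1000000 sense gene counts, log axis) against distance from the 5′ end of Mir322 in the direction of transcription (kb), with 1 point per library and Wilson 95% intervals; the lower panel shows the microRNA genes and the annotated noncoding genes to scale. Mir503, which lies between Mir322 and Mir351, stands below both, at 43.7 CPM in replicate 1 and 47.6 CPM in replicate 2.

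By mean level the order was Mir322 (3056 ± 788 CPM), Mir351 (388 ± 109 CPM), Mir542 (62.8 ± 8.14 CPM), Mir503 (45.7 ± 2.73 CPM), Mir450b (26.0 ± 7.89 CPM), Mir450-2 (5.62 ± 1.67 CPM) and Mir450-1 (1.54 ± 0.511 CPM), the same in each library. This order did not follow position, as the plot of levels along the cluster shows. The closest neighbours in the order were Mir542 and Mir503, whose ratio was 1.30 in replicate 1, with an exact 95% interval of 1.05 to 1.63, against 1.44 in replicate 2, with an interval of 1.18 to 1.76. Mir503 was 2.14 times Mir450b in replicate 1 (interval 1.60 to 2.90) against 1.51 times in replicate 2 (interval 1.19 to 1.92). No 2 neighbours in the order had overlapping CPM values across the libraries, although with n = 2 the spread of each is poorly known.

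Between the libraries, 3 of the 6 tested members were called higher in replicate 2 and none higher in replicate 1, by a two-sided exact binomial test on TMM-scaled counts with Benjamini-Hochberg adjustment over 316 genes. Of all 316 genes, 33.2% were called higher in replicate 2 and 60.4% in either direction, so the members' count differs by about 1 gene from either share. The median log2 ratio of replicate 1 over replicate 2 was -0.43 over the 6 members and -0.05 over all genes tested. The test sets these libraries against counting noise and says nothing about conditions. At an adjusted p of 0.05 the called members were Mir322, Mir351 and Mir450b.

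Mir322 had 8457 reads in replicate 1 and 13284 in replicate 2, a log2 ratio of -0.41 (exact 95% interval -0.45 to -0.37; exact binomial test, adjusted p = 1.24e-92). Mir351 had 1054 reads in replicate 1 against 1711 in replicate 2, a log2 ratio of -0.46 (-0.57 to -0.34; exact binomial test, adjusted p = 1.26e-15). Mir450b had 69 reads in replicate 1 against 116 in replicate 2, a log2 ratio of -0.51 (-0.96 to -0.06; exact binomial test, adjusted p = 0.037). The call of Mir450b is lost with DESeq2 size factors (adjusted p = 0.0637), with a minimum of 1 count (0.0626) and with the deeper library thinned (0.0897), all by the exact binomial test.

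The other tested members were not called. Mir503 had 148 reads in replicate 1 and 175 in replicate 2, a log2 ratio of 0.0016 (exact 95% interval -0.32 to 0.33). With library totals, the scale of CPM, the log2 ratio of Mir503 was -0.12. Mir542 had 193 reads in replicate 1 against 252 in replicate 2, a log2 ratio of -0.14 (-0.42 to 0.13). Mir450-2 had 15 reads in replicate 1 against 25 in replicate 2, a log2 ratio of -0.49 (-1.52 to 0.49), an interval too wide to tell it from either the called members or from no difference. The ratio of Mir322 to Mir503 in replicate 1 was 0.753 times that in replicate 2 (exact 95% interval 0.600 to 0.945), while for Mir351 in place of Mir503 it was 1.03 times (0.952 to 1.12). The same quantity was 0.831 for Mir542 (0.685 to 1.01) and 1.07 for Mir450b (0.787 to 1.47). These intervals were not adjusted for the number of pairs.

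**Figure D2:**
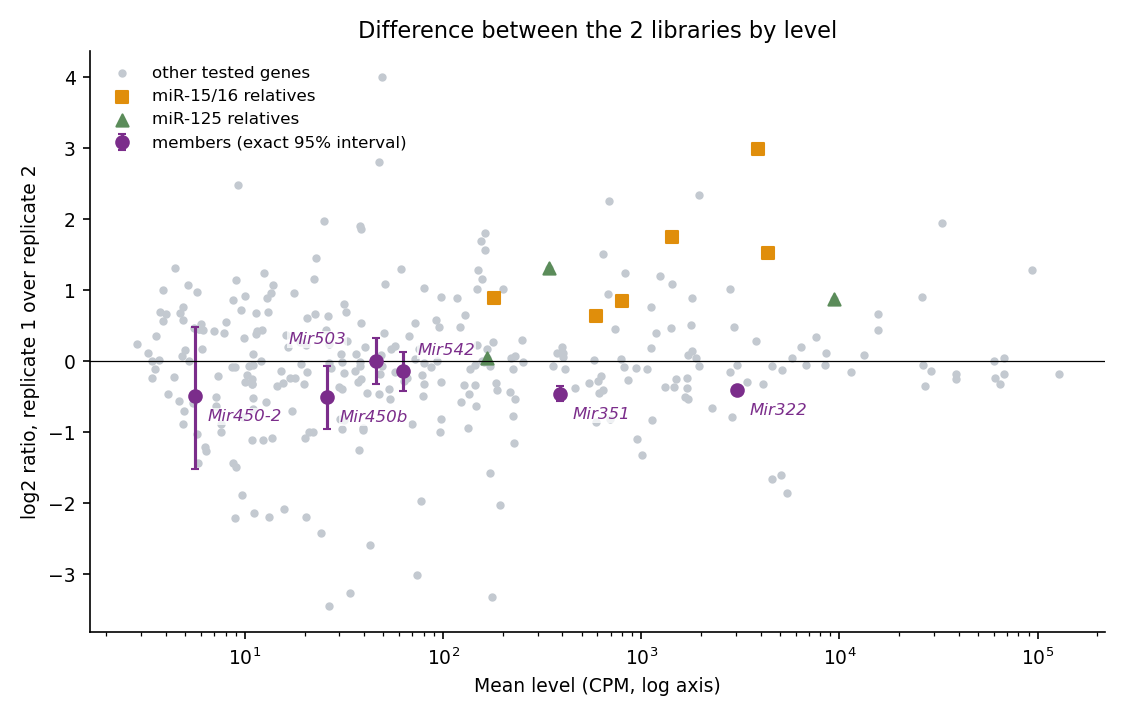
Log2 ratio of replicate 1 over replicate 2 (TMM-scaled counts) against mean level (CPM, log axis) for the 316 tested genes, with the 6 tested members and their exact 95% intervals, and the genes that share the seed of miR-322-5p (miR-15/16 relatives) or of miR-351-5p (miR-125 relatives). The members lie near or below 0, between 0.0016 and -0.51, while the 6 tested miR-15/16 relatives lie above 0.

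The genes that share the miR-322-5p seed differed between the libraries in the other direction. RefSeq gave this seed to 11 genes of the tables: Mir322, 6 others with reads, and Mir195b, Mir6342, Mir6353 and Mir6419 with 0 reads in each library. All 6 others were called higher in replicate 1 by the exact binomial test, as were 86 of all 316 genes tested. Mir195a had 6824 CPM in replicate 1 and 940 CPM in replicate 2, and Mir15b had 6336 CPM in replicate 1 and 2403 CPM in replicate 2. Mir15a had 2145 CPM in replicate 1 against 697 CPM in replicate 2. Mir16-1, Mir497 and Mir16-2 followed at means of 797 ± 277, 590 ± 145 and 180 ± 65.8 CPM.

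Of the reads at these 11 genes, the Mir322 share was 12.7% in replicate 1, with a Wilson 95% interval of 12.4 to 12.9, against 40.7% in replicate 2, with an interval of 40.2 to 41.2. By gene counts, Mir322 was below Mir195a and Mir15b in replicate 1 and above each of the 6 in replicate 2. Mir16-1 and Mir16-2 share a stretch of 20 nt or more and carry the same miR-16-5p. Its reads fit both genes, and reads that mapped to more than 1 place entered no gene count. The counts of Mir16-1 and Mir16-2 are therefore no measure of miR-16-5p, and the share of Mir322 may be too high. Without these genes the share of Mir322 was 13.5% in replicate 1 and 44.4% in replicate 2, which does not make up for such reads. The share is one of gene counts, since the arms were not counted apart.

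**Figure D3:**
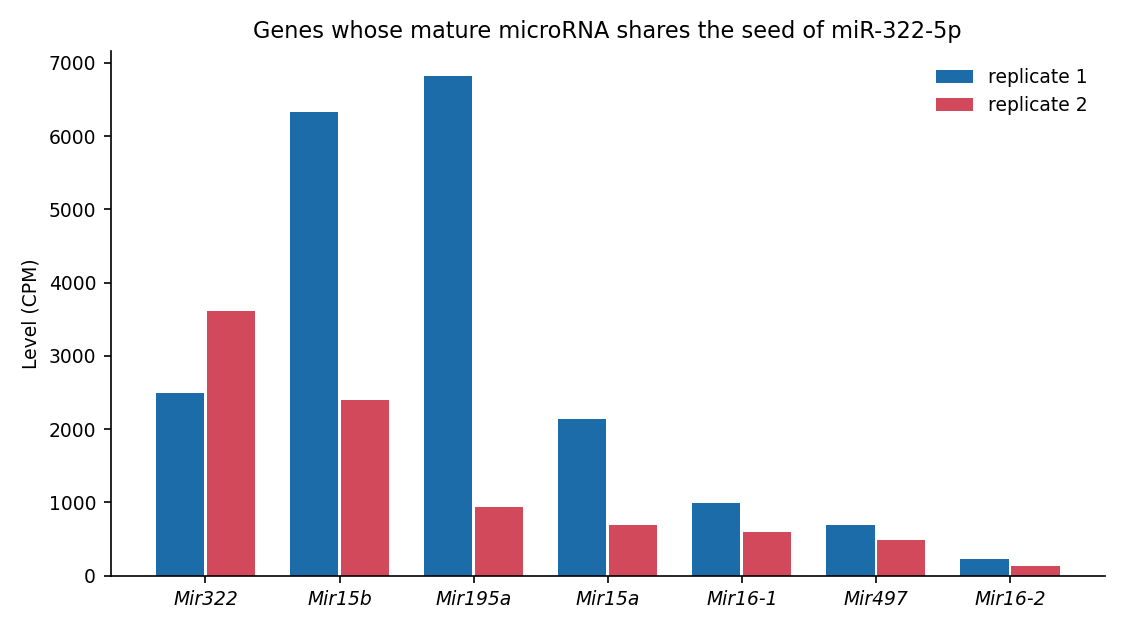
Level (CPM, axis from 0) of Mir322 and of the 6 other genes with reads whose mature microRNA shares the seed of miR-322-5p, with 1 bar per library and no error bars. Mir322 is the only gene of the 7 that is higher in replicate 2, at 2499 CPM in replicate 1 against 3614 CPM in replicate 2.

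Mir351 was a minor gene among those with its seed. Mir125a had 11744 CPM in replicate 1 and 6970 CPM in replicate 2. Mir125b-1 had 477 CPM in replicate 1 against 210 CPM in replicate 2, and Mir125b-2 had 162 CPM in replicate 1 against 172 CPM in replicate 2, counts made uncertain by a stretch that these genes share. Both carry miR-125b-5p, whose reads can be missing from these counts, so the share of Mir351 given below may be too high. Mir125a and Mir125b-1 were called higher in replicate 1 by the exact binomial test, as were 86 of all 316 genes tested. Mir125b-2 was not called (log2 ratio 0.04). This ratio is on TMM-scaled counts and CPM on sense totals, so a small difference can change sign between them. Mir6367 and Mir6394, which carry the seed too, had 0 reads. Of the reads at these 6 genes Mir351 held 2.45% in replicate 1, with a Wilson 95% interval of 2.31 to 2.60, against 5.95% in replicate 2, with an interval of 5.69 to 6.23. Of the other seeds of the cluster, that of miR-542-5p was shared with Mir6966 (1.77 CPM in replicate 1 and 1.90 CPM in replicate 2) and that of miR-450b-3p with Mir6352, which had 0 reads.

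Set beside other clusters, the miR-322 cluster combined a wide range of levels with a narrow range of library differences. The Mirlet7d cluster did so as well. Clusters were taken as microRNA genes on 1 strand with gaps of at most 10 kb, and 13 of them had 3 or more genes with 10 counts in each library. Mir322 was 544 times Mir450-2, the lowest such member, the second largest ratio of highest to lowest gene of the 13, whose median was 41.9. This ratio rests on the 15 reads in replicate 1 and 25 in replicate 2 of Mir450-2, a gene that shares a stretch with Mir450-1. With a minimum of 100 counts it was 66.9, at rank 4 of 11 clusters. The nearest clusters by this ratio were those of Mir23b (804), Mir23a (389) and Mir127 (140), and the 3 genes of each of the Mir23 clusters share stretches with other loci.

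The log2 ratios between libraries spanned 0.51 within the miR-322 cluster, the second smallest of the 13, against a median of 1.35 and a range of 0.09 to 3.21. The smallest span, 0.09, was that of the Mirlet7d cluster, whose highest gene was 105 times its lowest. Of the 3 genes of that cluster, 2 share stretches with other loci. With gaps of up to 50 kb the miR-322 cluster was at rank 3 of 15 clusters. A span depends on how many genes a cluster has and on their counts, and no test was made. The neighbouring X-linked cluster, with Mir106a, Mir20b and Mir92-2, lies 305 kb away and had the widest span, 3.21. Its 6 genes summed to 275 CPM in replicate 1 and 209 CPM in replicate 2. Mir106a had 23 reads in replicate 1 against 125 in replicate 2, while Mir92-2, which shares a stretch with another locus, had 877 reads in replicate 1 against 514 in replicate 2.

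**Figure D4:**
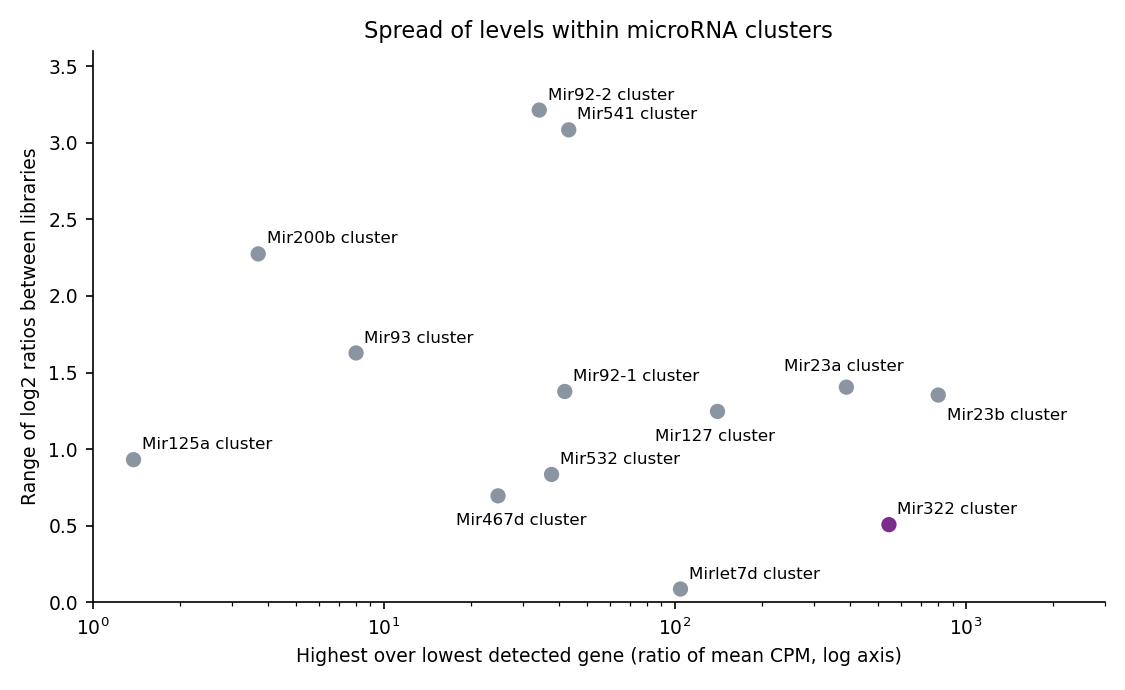
Range of log2 ratios between the libraries against the ratio of the highest to the lowest gene (mean CPM, log axis) in each of 13 clusters with 3 or more genes at 10 counts in each library, each named by its highest gene. The miR-322 cluster (purple) lies at a ratio of 544 and a range of 0.51.

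The genes whose levels were most like those of Mir322 in both libraries, of 315 others tested, were Mir674, Mir100, Mir320, Mir21a and Mir151. Likeness was the Euclidean distance between log2 CPM values over the 2 libraries, which was 0.23 for Mir674 and 0.61 for Mir151. Mir674 had 2544 CPM in replicate 1 and 3080 CPM in replicate 2, and Mir21a had 2002 CPM in replicate 1 against 3756 CPM in replicate 2.

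Marker microRNAs of several cell types differed between the libraries beside the members, and their part in the members' differences was not tested. By the exact binomial test, 105 of all 316 tested genes were called higher in replicate 2 and 86 higher in replicate 1. Called higher in replicate 2, like Mir322, were 5 of 5 white blood cell markers (summed level 8644 CPM in replicate 1, 16363 CPM in replicate 2) and 2 of 2 smooth muscle markers (35639 CPM in replicate 1, 50822 CPM in replicate 2). So were 5 of the 6 tested among 7 epithelial markers (201 CPM in replicate 1, 725 CPM in replicate 2). Called higher in replicate 1 were 3 of 3 erythroid markers (4182 CPM in replicate 1, 1938 CPM in replicate 2), 3 of 3 striated muscle markers (5624 CPM in replicate 1, 4831 CPM in replicate 2), Mir126a of endothelial cells (129043 CPM in replicate 1, 57714 CPM in replicate 2) and the hepatocyte gene Mir122 (23.9 CPM in replicate 1, 17.1 CPM in replicate 2). The 5 fibroblast and stroma markers were split, with 2 called higher in replicate 1 and 1 in replicate 2 (5481 CPM in replicate 1, 4548 CPM in replicate 2). Of the 6 neuronal markers, 3 were found under their symbols, summing to 0.887 CPM in replicate 1 against 0.816 CPM in replicate 2, and Mir9-1 and Mir9-2 were at 0. In bulk tissue, fewer cells of a type and less RNA per cell cannot be told apart.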

How the data were processed

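The deposited files hold whole-number counts for each microRNA gene, per their values, in separate columns for sense, antisense and unstranded reads; sense counts were used. The readme text deposited with each library names assembly mm10 and annotation GENCODE M21. Per the labels' protocols, total RNA was the input, the linked protocol is one for multiplexed miRNA libraries, and the size range was below 30, with no unit. For the aligner and the counter, the sources used here give no name. CAST/EiJ variants may lower counts on mm10, which was not tested.

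The 4 rows that name no gene (unmapped, multimapping, featureless and ambiguous reads) were kept out of totals. In replicate 1 these made up 14.9%, 43.9%, 5.07% and 0% of all reads, and in replicate 2 16.2%, 43.2%, 5.75% and 0%. CPM used sense totals, on which 3 counts are 0.887 CPM in replicate 1 and 0.816 CPM in replicate 2. Genes with 10 counts in each library were compared by an exact binomial test on TMM effective sizes (edgeR 4.0.16), with Benjamini-Hochberg adjustment at 0.05. DESeq2 1.42.0 gave alternative size factors. The test was run on simulated Poisson counts with known 2-fold changes, scaled by library totals. It called 88.9% of the changed genes and 2.65% of the unchanged ones. Such counts hold counting noise only, so this does not show how the test behaves on these libraries. R 4.3.3, Python 3.11.15, scipy 1.17.1 and pandas 2.3.3 were used. A shared stretch is 20 nt or more at another locus. Of the 2202 genes, 1036 matched a RefSeq microRNA, so seed relatives may be missing. Named were all members, fixed lists of relatives, neighbours and markers, and the nearest genes and clusters. Members and lists were chosen with earlier results of these data known. Alternatives are given below.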

Additional observations from a re-analysis of the deposited data

How the results depend on the processing

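The cluster's share of 0.359% was 0.478% with reads on either strand and 0.127% of all reads. The CPM of 6 of 7 members moved by more than 1 SD with reads on either strand. The members' own counts were the same in that setting, so only the total they are divided by changed. The share was 0.358% without Mir450-1 and Mir450-2, 0.424% without replicate 1 and 0.294% without replicate 2. The ratio of highest to lowest gene fell to 66.9 with at least 100 counts, where Mir450-2 and Mir450b drop out, and was 544, at rank 2, with gaps of at most 5 kb or 50 kb. The span of log2 ratios was at rank 2 of 13 clusters from the smallest with 5 kb, rank 3 of 15 with 50 kb and rank 2 of 11 with at least 100 counts. The number of genes called lay between 132 and 201 over 6 alternatives, but the number tested changed too. It was 132 of 181 genes with at least 100 counts and 201 of 708 with a minimum of 1 count. The number of members called, an alternative added after seeing the data, was 2 or 3. It was 2 of 4 tested with at least 100 counts and 2 of 7 with a minimum of 1 count. The other alternatives tested 6 members. Mir322 and Mir351 were called under each of the 6. The log2 ratio of Mir503 turned to -0.12 with library totals and to -0.013 with a minimum of 1 count, so it has no settled sign. Over all tested genes the median log2 ratio was -0.18 with library totals and -0.05 with TMM. The share of Mir322 among genes with its seed, likewise added, was 40.7% without replicate 1 and 12.7% without replicate 2. Depth limits Mir450-1, at 4 reads in replicate 1 and 7 in replicate 2, and Mir450-2. No paired analysis was possible because there is 1 group.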
